A study of Homo sapiens with 6 samples.

Results

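The 46 genes described here are human cyclins, cyclin-dependent kinases (CDKs) and CDK inhibitors, not all of their families, together with both *CABLES* genes, taken by symbol from a table of 60655 genes. They comprise 2 CABLES adaptors, 7 cyclins and 3 CDKs of G1 and S phase, 4 genes of G2 and M phase, 13 cyclins and CDKs of transcription and RNA processing, 11 atypical cyclins and CDKs, and 6 CDK inhibitors. *CABLES2* led to the choice, because its p-value in the comparison of the IPs was among the smallest of all genes, and its families were taken up around it. What follows on that comparison is therefore a description of these genes, with confidence intervals. Thresholds on p are used there only to count calls.

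RNA immunoprecipitation sequencing (RIP-seq) recovers RNA that comes down from lysate with an antibody. All 6 libraries came from WaGa, 1 established Merkel cell carcinoma (MCC) line that is labelled wild type and was not treated. Antibody was the only labelled difference, with 3 IPs against IGF2BP3 and 3 with IgG as the negative control. The labels call the replicates independent without saying whether same-numbered IPs shared a lysate, so the intervals cover the spread between these libraries, which may be technical. No input RNA was analysed here. A level in the IgG IP is that of RNA recovered by the control antibody, and more cells and more RNA per cell cannot be told apart in such bulk samples.

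Cyclins are regulatory subunits that switch on their partner CDKs, and inhibitors of the Cip/Kip and INK4 classes hold the kinases back. Classical pairs drive DNA replication and mitosis, while other family members phosphorylate RNA polymerase II, sit in the Mediator complex or act at membranes and in neurons. CABLES proteins are adaptors with a cyclin-box-like region that link CDKs to tyrosine kinases. IGF2BP3 is an oncofetal RNA-binding protein with RRM and KH domains that is known to bind CA-rich elements and the m6A context GGAC and to act on the stability and translation of its RNAs.

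Of the 46 genes, 43 passed the expression filter and were tested together with all other genes, 14507 in total. The totals ran from 9758759 counts in IgG IP replicate 1 to 14886414 in IgG IP replicate 2, and the 46 genes took between 0.638% and 0.694% of each library. Replicate 1 stood apart in both groups, with a chi-square per degree of freedom of 18.5 to 22.4 against the other libraries of its group, where replicates 2 and 3 gave 2.2 in the IgG IP and 3.27 in the IGF2BP3 IP. Values without replicate 1 are therefore given for both CABLES genes, *CDK16*, *CDKN1C*, *CCNF*, *CDK1* and *CDK10* and for the counts of calls. For the other members they are not given. Of 9 MCC and neuroendocrine marker genes, 8 were tested and 0 were past the thresholds, and their summed TPM was 1721 to 2689 in the IgG IP and 1999 to 2745 in the IGF2BP3 IP. The exception was *NEUROD1*, with at most 2 counts. Among markers of other cell types, *PTPRC*, *CD3E* and *MLANA* were at 0 in all 6 libraries, and *KRT5*, *COL1A1* and *PECAM1* had at most 11 counts in any library.

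To show the RNA behind the comparison of related genes, the richest stretch of CA dinucleotides is printed for both CABLES genes and for *CDK16* and its closest tested relative *CDK17*. Each line is the 30-base window of the coding sequence with the most CA, the first one where several tie, kept within 1 exon of the canonical transcript (GENCODE version 44, GRCh38) and read 5′ to 3′ on the sense strand. Capitals mark CA.
CABLES2: gccccCAcCAagtcggCAcCAgcCAgCACA
CABLES1: tggagCAgcCAggcCAgggcggCAgCAcCA
CDK16: tctaCAaaggCAaaagCAagctCACAgaCA
CDK17: CAgataaaCAgtcCAcCAtttgacCAacCA
The windows lie at chr20:62393447-62393476 on the minus strand in exon 6 of *CABLES2*, at chr18:23136550-23136579 on the plus strand in exon 1 of *CABLES1*, at chrX:47225004-47225033 on the plus strand in exon 6 of *CDK16*, and at chr12:96311082-96311111 on the minus strand in exon 5 of *CDK17*. The *CABLES2* window holds 7 CA and the other windows 6 each. Among the coding sequences of 11867 tested genes, 41.7% had a window with at least 7 CA and 77.6% one with at least 6, so such a window is common. It describes the sequence and is not a mapped binding site.

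*CABLES2* was the most shifted of the 43 tested genes and the only one past 2-fold. Its product is an adaptor that binds CDKs such as CDK5 and CDK3. The gene (ENSG00000149679.11) occupies chromosome 20 from 62388634 to 62407285 on the minus strand of GRCh38, with 10 exons in a canonical transcript of 3783 bases, and no exon of another gene overlaps them.

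*CABLES2* gave 74.0, 83.2 and 86.9 normalized CPM (counts scaled to a common library size after TMM normalization) in the IgG IP, listed from replicate 1 to 3, and in the IGF2BP3 IP it gave 160, 204 and 188. The lowest IGF2BP3 IP library therefore lay well above the highest IgG IP library. The means were 81.4 ± 6.64 and 184 ± 22.2 (SD, n = 3 each), and the fitted log2 fold change was 1.17 (SE 0.11, 95% confidence interval 0.93 to 1.42), or 2.26-fold. Within same-numbered libraries the log2 ratio was 1.11, 1.29 and 1.11. Without replicate 1 the log2 fold change was 1.21, and with a correction of each library for GC content 1.03. It was 1.09 when replicate 2 of the IGF2BP3 IP was left out, the only library whose removal alone meant that the adjusted p missed its threshold. That fit called 0 of 14837 genes in either direction, so the miss was not particular to *CABLES2*. On the separately estimated scale of log2(TPM + 1), where TPM also divides by transcript length, the difference was 1.32, but the spread between libraries was larger there and the adjusted p missed the threshold. On that scale 0 of 14507 genes were called.

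*CABLES1*, the paralog that was first described as a partner of CDK3 and ABL, lay near 0. The gene (ENSG00000134508.12) spans bases 23134564 to 23260470 of chromosome 18 on the plus strand and also has 10 exons. It gave 20.1, 38.3 and 36.9 normalized CPM in the IgG IP, against 25.4, 37.1 and 38.9 in the IGF2BP3 IP, and the groups overlapped. Its log2 fold change was 0.08 (SE 0.24, 95% confidence interval −0.48 to 0.63), an interval that still reaches past 1.5-fold at its upper end. Replicate 1 was the lowest library of both groups. Without replicate 1 the value was 0.01, and leaving out IgG IP replicate 1 alone turned it to −0.15. With the replicate number as a block the log2 fold change of *CABLES1* was 0.10 (SE 0.09). A long noncoding gene overlaps *CABLES1* on the opposite strand over 326 bases and held at most 5 counts.

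The paralogs are best set against each other per length and within a library. The TPM of *CABLES2* was 3.60, 1.74 and 2.34 times that of *CABLES1* in the IgG IP, compared with 6.52, 5.11 and 4.60 times in the IGF2BP3 IP. All 3 IGF2BP3 IP ratios exceeded all 3 IgG IP ratios, by 1.13 on the log2 scale on average. The transcripts had nearly the same GC content, 56.3% for *CABLES2* and 56.8% for *CABLES1*. Over the whole transcript *CABLES2* carried 83.5 CA per kilobase, more than 91.4% of all tested genes, and *CABLES1* 65.1, more than 25.2%. Such a density was not particular to *CABLES2*. Among the tested members *CCNK* had 87.7 and *CDKN3* 83.2 per kilobase, with log2 fold changes of 0.22 and −0.12. For the 4 letters GGAC the densities were 5.29 and 4.35 per kilobase.

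**Figure D1:**
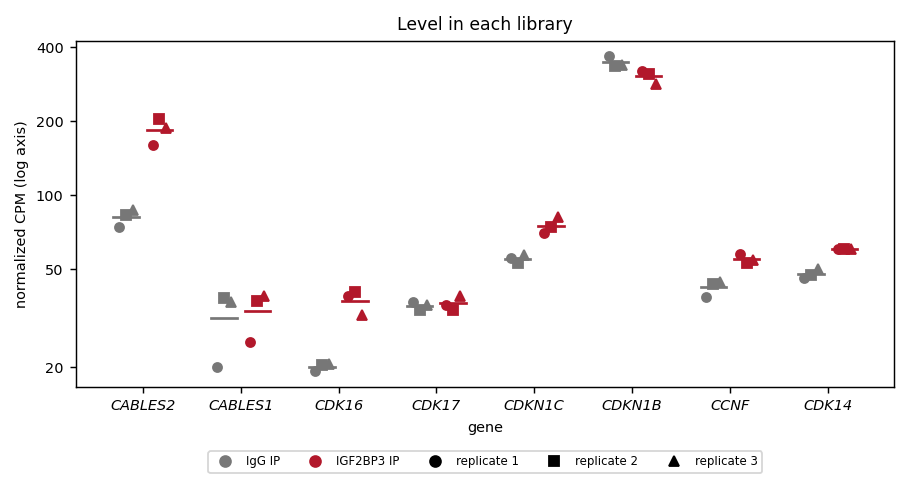
Normalized CPM (log axis) of 8 genes in each library, with grey for the IgG IP, red for the IGF2BP3 IP, marker shape for the replicate number and a line for the mean of 3 libraries. CABLES2, CDK16, CDKN1C, CCNF and CDK14 show no overlap between the groups and lie higher in the IGF2BP3 IP, CDKN1B lies lower without overlap, and CABLES1 and CDK17 overlap.

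Over all 46 genes, 2 were past both thresholds, which were 1.5-fold and an adjusted p under 0.05 (Benjamini-Hochberg) in edgeR. These were *CABLES2* and *CDK16*, 4.65% of the 43 tested, where 1.16% of all tested genes were called higher. The contrast chose the set, so nothing is read from that share. DESeq2, run without the expression filter, called the same 2 members. It called 281 of 29184 genes higher, or 0.963%, where edgeR called 169 of 14507. The 29184 genes were all those with any count, including any that DESeq2 left without an adjusted p. These shares therefore have unlike bases. No member was called lower by edgeR or DESeq2, in which the share over all genes was 0 as well. At an unadjusted p under 0.05 edgeR had 5 members higher and 2 lower, where 9.72% and 3.10% of all tested genes were. Without replicate 1 the same 2 members were called higher, and 3.18% of all genes were higher and 0.0545% lower. The same 2 were called with the replicate number as a block, which called 3.56% of all genes higher and 0.103% lower. With a minimum of 2-fold *CABLES2* alone was called, beside 0.338% of all genes, and limma-trend on log2(TPM + 1) called 0 members and 0 of all genes in either direction. The median log2 fold change was −0.07 (interquartile range −0.12 to 0.07), beside −0.01 (−0.13 to 0.19) over all tested genes, and 17 of 43 lay above 0, or 39.5%, beside 48.9% of all tested genes. In the fit without the block, the whole 95% confidence interval stayed within 1.5-fold in either direction in 36 of 43. The 7 that did not were *CABLES1*, *CABLES2*, *CDK6*, *CCNF*, *CDK16*, *CDK20* and *CDKN1C*.

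Groups that did not overlap were found in both directions. On normalized CPM the IGF2BP3 IP lay above the IgG IP without overlap in 6 members, *CABLES2*, *CDK16*, *CDKN1C*, *CCNF*, *CDK14* and *CCNK*, or 14.0%, where 12.0% of all tested genes did so. It lay below in 6 others, *CDK7*, *CCNC*, *CDKN1B*, *CCNA1*, *CDKN2D* and *CCNY*, also 14.0%, where 8.69% of all tested genes did so. Of the members that lay above, only *CABLES2*, *CDK16* and *CCNF* stayed apart on TPM, and all that lay below overlapped there. *CDK2* and *CCNL1* lay above without overlap on TPM but not on normalized CPM. As the contrast chose the set, nothing is read from either share.

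**Figure D2:**
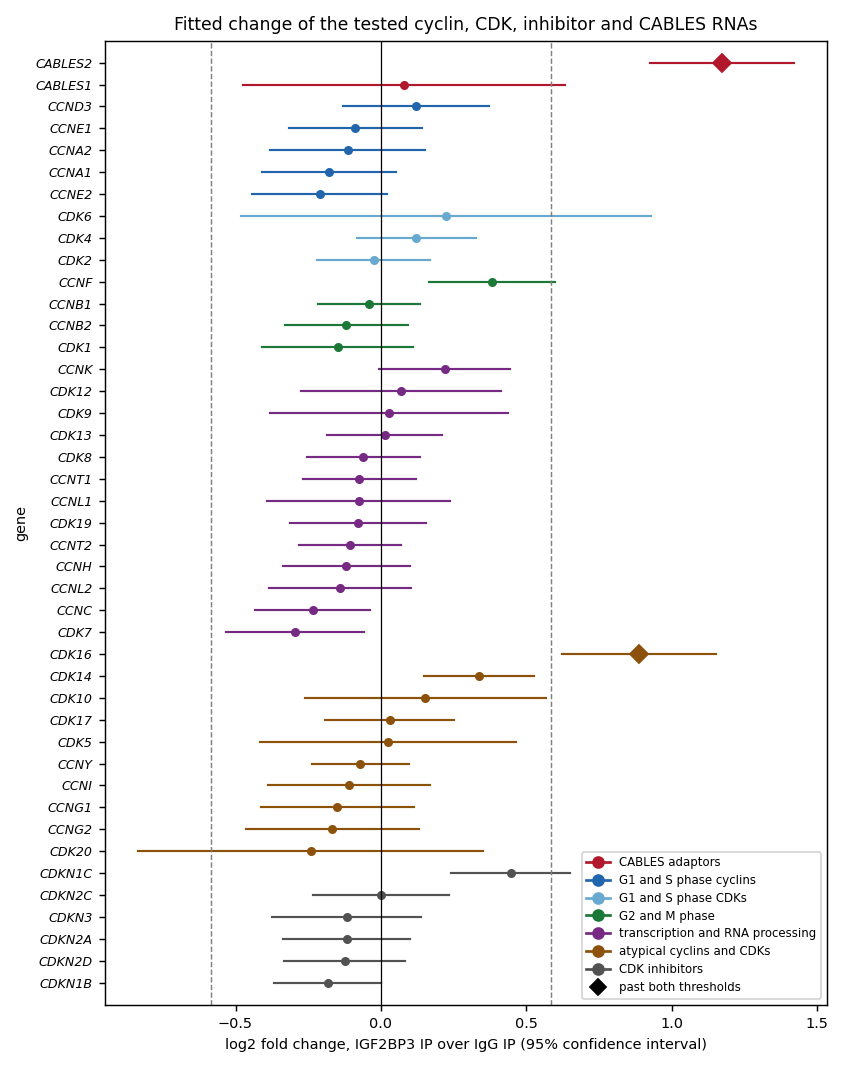
Fitted log2 fold change of IGF2BP3 IP over IgG IP for the 43 tested genes, grouped and coloured by role, with bars for the 95% confidence interval, diamonds for genes past both thresholds and dashed lines at 1.5-fold. CABLES2 at 1.17 and CDK16 at 0.89 stand apart, and most other intervals include 0.

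*CDK16* was the other member past the thresholds. It encodes a kinase of the PCTAIRE group that is activated by cyclin Y and acts in vesicle transport and neurite growth. The gene (ENSG00000102225.16) spans bases 47217860 to 47229997 of chromosome X on the plus strand and has 16 exons. It gave 19.3, 20.4 and 20.6 normalized CPM in the IgG IP, against 38.9, 40.3 and 32.6 in the IGF2BP3 IP, so that every IGF2BP3 IP library exceeded every IgG IP library. The means were 20.1 ± 0.72 and 37.2 ± 4.08 (SD, n = 3 each), and the log2 fold change was 0.89 (SE 0.12, 95% confidence interval 0.62 to 1.15), or 1.85-fold. It was 0.83 without replicate 1 and 0.70 with the GC correction. The call was lost with more single libraries left out than that of *CABLES2*. It was lost without replicate 2 of the IgG IP, without replicate 3 of the IgG IP or without replicate 2 of the IGF2BP3 IP. Those fits called 0.128%, 0.0470% and 0 of all genes higher, and the last of them called no member.

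*CDK17*, its relative in the PCTAIRE group, gave 36.7, 34.1 and 36.0 normalized CPM in the IgG IP, compared with 35.8, 34.3 and 38.9 in the IGF2BP3 IP. Its log2 fold change was 0.03 (SE 0.10, 95% confidence interval −0.19 to 0.25), with overlapping groups. The TPM of *CDK16* was 0.85, 0.75 and 0.75 times that of *CDK17* in the IgG IP, against 1.28, 1.23 and 1.25 times in the IGF2BP3 IP, so on TPM the order of the pair turned in all 3 libraries. On normalized CPM, which are not per length, *CDK16* stayed below *CDK17* in IGF2BP3 IP replicate 3, at 0.837 times. *CDK18*, the other kinase of this group, did not pass the expression filter, as it had 0 counts in every IgG IP library and at most 2 counts in an IGF2BP3 IP library, all under the 3 counts taken as the floor (0.201 to 0.325 CPM by library). As between the CABLES genes, CA was denser in the transcript of *CDK16*, at 79.3 per kilobase, than in that of *CDK17*, at 64.7, but here the GC content differed too, at 59.7% and 40.2%.

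The other atypical members lay closer to 0. *CDK14*, a membrane-bound kinase that also pairs with cyclin Y, gave 46.2, 47.3 and 50.1 normalized CPM in the IgG IP, compared with 60.5, 60.4 and 60.5 in the IGF2BP3 IP. The groups did not overlap, and the log2 fold change of 0.34 (SE 0.08, 95% confidence interval 0.15 to 0.53) stayed under 1.5-fold. With the GC correction it was 0.38. On TPM *CDK14* gave 7.46, 17.6 and 16.9 in the IgG IP, against 13.7, 14.0 and 16.8 in the IGF2BP3 IP, with overlap. The log2(TPM + 1) difference was 0.16, beside a median of 0.11 over all tested genes. *CCNY*, the common cyclin of *CDK16* and *CDK14*, had a log2 fold change of −0.07 (SE 0.07). *CCNI*, an atypical cyclin of differentiated cells and the most abundant of these genes per length, gave 1151, 873 and 934 normalized CPM in the IgG IP, against 1027, 883 and 830 in the IGF2BP3 IP, which overlapped. The log2 fold changes of *CCNI*, the p53-responsive *CCNG1*, *CCNG2*, the neuronal kinase *CDK5* and *CDK10* ran from −0.17 to 0.15. The highest of them, *CDK10*, was at −0.055 without replicate 1. *CDK20* rested on 20 to 39 counts per library and had a wide interval, −0.84 to 0.35.

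Among the CDK inhibitors, *CDKN1C*, the imprinted Cip/Kip inhibitor p57, had the largest value. It gave 55.8, 52.9 and 57.1 normalized CPM in the IgG IP, compared with 70.3, 74.2 and 81.4 in the IGF2BP3 IP, without overlap. The log2 fold change was 0.45 (SE 0.09, 95% confidence interval 0.24 to 0.65), under the 1.5-fold threshold, and 0.50 without replicate 1. With the GC correction it was 0.22, and its transcript had the highest GC content of the tested members, 62.9%.

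Its relative *CDKN1B*, the inhibitor p27, lay on the other side of 0. It gave 367, 336 and 338 normalized CPM in the IgG IP, against 320, 312 and 285 in the IGF2BP3 IP, with a log2 fold change of −0.18 (SE 0.08, 95% confidence interval −0.37 to 0.00). The TPM of *CDKN1C* was 0.227, 0.248 and 0.263 times that of *CDKN1B* in the IgG IP, compared with 0.331, 0.370 and 0.440 times in the IGF2BP3 IP, again without overlap. Other pairs did not shift in this way. The TPM ratios of *CCNE2* to *CCNE1*, *CCNA2* to *CCNA1*, *CDK4* to *CDK6* and *CDK19* to *CDK8* overlapped between the IPs. So did those of *CCNT1* to *CCNT2*, *CCNH* to *CDK7* and *CDK12* to *CDK13*, while that of *CCNC* to *CDK8* was lower without overlap. In this pair the richest CA window held fewer CA in *CDKN1C* than in *CDKN1B*.
CDKN1C: CAgtactagtgcgCAcCAgcgcctgccgCA
CDKN1B: tctactCAaaaCAaaagagcCAaCAgaaCA
These windows hold 4 and 5 CA and lie at chr11:2885396-2885425 on the minus strand in exon 2 of *CDKN1C* and at chr12:12718830-12718859 on the plus strand in exon 2 of *CDKN1B*. The CA density of *CDKN1C* over its transcript, 50.8 per kilobase, was higher than in only 1.86% of all tested genes, while its GGAC density, 8.46 per kilobase, was higher than in 96.1%. For *CDKN1B* the densities were 57.2 and 3.73. The pair thus differed from the CABLES and PCTAIRE pairs in which member carried more CA.

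The INK4 inhibitors, which bind CDK4 and CDK6, had log2 fold changes of −0.12 for *CDKN2A*, 0.00 for *CDKN2C* and −0.12 for *CDKN2D*. With the GC correction *CDKN2A* was at −0.29 and *CDKN2D* at −0.33. *CDKN3*, a phosphatase that acts on CDKs and the inhibitor with the highest TPM, gave 103, 93.2 and 76.9 normalized CPM in the IgG IP, against 81.5, 88.7 and 81.6 in the IGF2BP3 IP, with overlap.

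Within pairs of G1 and S phase genes, the recovered RNA was uneven. Of the D cyclins, which activate CDK4 and CDK6, only *CCND3* was tested, at 19.1 ± 3.61 TPM in the IgG IP (SD, n = 3) and a log2 fold change of 0.12. *CCND1* had at most 1 count in an IgG IP library and 0, 0 and 4 in the IGF2BP3 IP, and *CCND2* between 0 and 5 counts in any library. Both fell below the filter, and no difference was detectable at this depth.

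The kinases were as uneven. The TPM of *CDK4* was 208, 267 and 614 times that of *CDK6* in the IgG IP, a ratio that rests on 14 to 33 counts of *CDK6* per library. *TSPAN31* overlaps 57.8% of the *CDK4* transcript on the opposite strand and held 124 to 172 counts. The log2 fold change of *CDK4* was 0.12. *CDK6* gave 1.84, 2.21 and 1.13 normalized CPM in the IgG IP, against 2.10, 2.11 and 1.87 in the IGF2BP3 IP, and its log2 fold change of 0.22 had an interval from −0.48 to 0.93. *CDK2*, the partner of cyclins E and A, gave 153, 136 and 143 normalized CPM in the IgG IP, compared with 149, 131 and 145 in the IGF2BP3 IP, which overlapped, with a log2 fold change of −0.03. On the log2(TPM + 1) scale the same gene was 0.35 higher, where the median of all tested genes lay at 0.11. Its exons overlap *PMEL* and a noncoding gene on the opposite strand, each with at most 13 counts.

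*CCNE2*, a cyclin E that activates CDK2 at the entry to S phase, was the most abundant member per length in the IgG IP, at 483 ± 35.5 TPM (SD, n = 3). It stood 14.2, 10.0 and 10.1 times above *CCNE1* in TPM, and *CCNA2* stood 7.60, 5.96 and 6.06 times above the mostly germ-line *CCNA1*. *CCNE2* gave 1120, 909 and 926 normalized CPM in the IgG IP, against 913, 846 and 796 in the IGF2BP3 IP. The groups overlapped by a narrow margin, and the log2 fold change was −0.21 (SE 0.10, 95% confidence interval −0.44 to 0.02), the largest of these cyclins, or −0.07 with the GC correction. *INTS8* overlaps 56.9% of its transcript on the opposite strand, and whether the counting used the strand is not stated. *CCNA1* gave 36.5, 36.4 and 36.1 normalized CPM in the IgG IP, compared with 29.6, 31.6 and 35.0 in the IGF2BP3 IP, lower without overlap but with an interval that includes 0.

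**Figure D3:**
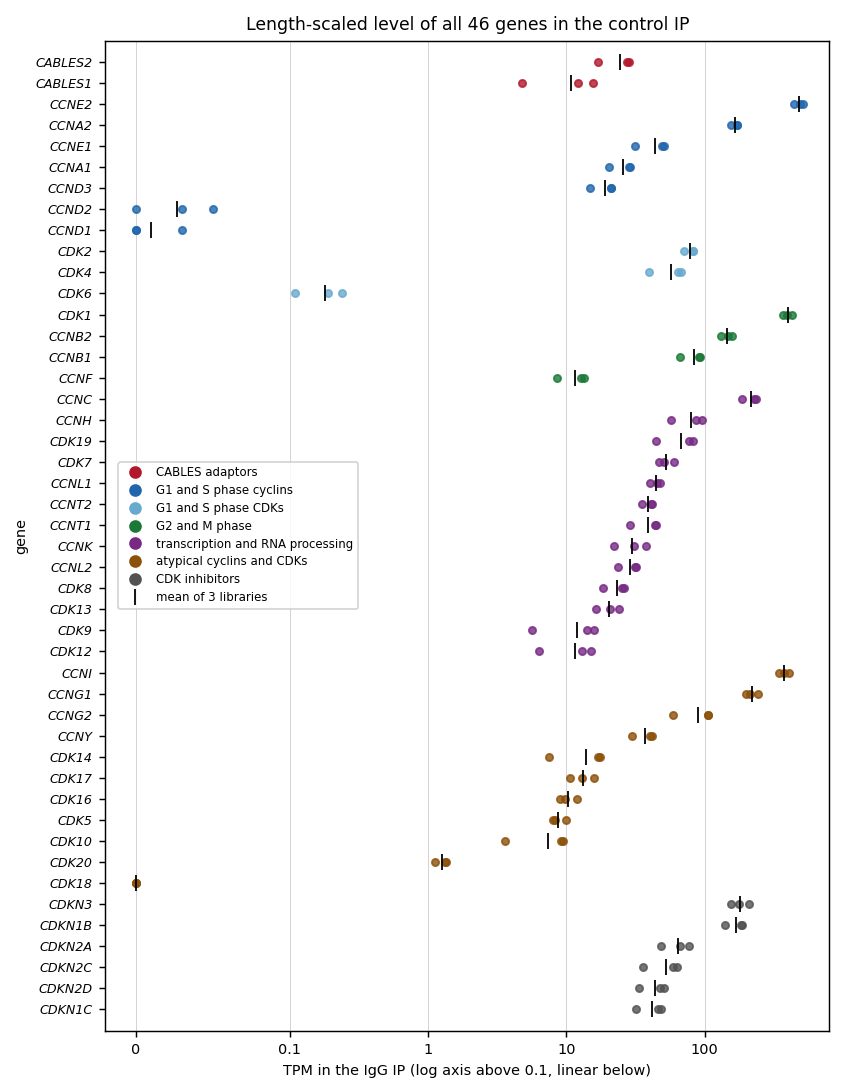
TPM of all 46 genes in the 3 IgG IP libraries (points), with a bar for their mean, on an axis that is logarithmic above 0.1 and linear below, grouped and coloured by role. CCNE2, CDK1 and CCNI lead with means of 483, 399 and 376, CABLES2 stands at 24.4, and CCND1, CCND2 and CDK18 lie at or near 0.

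In the order of levels per length, *CCNE2* at 483 ± 35.5 TPM came before *CDK1* at 399 ± 30.7 and *CCNI* at 376 ± 30.1, and the libraries of the last 2 overlapped. *CCNG1* at 220 ± 22.3 and *CCNC* at 217 ± 27.6 did not differ beyond their spread either. *CABLES2*, at 24.4 ± 6.33, was 29th of 46 in the control IP, *CABLES1*, at 10.9 ± 5.60, 38th, and *CDK16*, at 10.2 ± 1.60, 39th. The libraries of *CABLES1* and *CDK16* overlapped. Both called genes thus came from the lower part of the order. The most abundant members were not those that stood higher in the IGF2BP3 IP.

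For G2 and M phase, *CDK1*, the kinase of mitotic entry, gave 721, 585 and 531 normalized CPM in the IgG IP, against 581, 535 and 541 in the IGF2BP3 IP, with overlap and a log2 fold change of −0.15 (SE 0.11). Without replicate 1 *CDK1* was at −0.05. Its partners *CCNB1* and *CCNB2* had values of −0.04 and −0.12. *CCNF* stood apart from these 3. It encodes cyclin F, an F-box protein that marks proteins for degradation and does not activate a CDK. It gave 38.6, 43.8 and 44.5 normalized CPM in the IgG IP, compared with 57.8, 53.1 and 54.6 in the IGF2BP3 IP, without overlap, and its log2 fold change was 0.38 (SE 0.10, 95% confidence interval 0.16 to 0.60). It was 0.29 without replicate 1 and 0.22 with the GC correction.

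The 13 cyclins and CDKs of transcription and RNA processing stayed within a narrow band. In all 13 the confidence interval lay within 1.5-fold, the log2 fold changes ran from −0.30 to 0.22, and their median was −0.08. *CDK7*, the kinase of TFIIH that also activates other CDKs, was the lowest of all 43 tested members. It gave 62.9, 56.2 and 50.7 normalized CPM in the IgG IP, against 47.5, 43.4 and 47.2 in the IGF2BP3 IP, which did not overlap, with a log2 fold change of −0.30 (95% confidence interval −0.53 to −0.06). Its partner *CCNH* had −0.12 and overlapping groups. *CCNC*, the cyclin of the Mediator kinase module, gave 405, 348 and 345 normalized CPM in the IgG IP, compared with 322, 308 and 303 in the IGF2BP3 IP, lower without overlap, with a log2 fold change of −0.23, or −0.11 with the GC correction.

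The kinases of *CCNC*, *CDK8* and *CDK19*, had values of −0.06 and −0.08, and *CDK19* stood 2.43, 3.25 and 2.96 times above *CDK8* in TPM in the IgG IP. *CCNT1*, *CCNT2* and *CDK9*, which form the elongation factor P-TEFb, lay between −0.11 and 0.03. *CCNK*, which pairs with *CDK12* and *CDK13*, was the highest of this role. It had a log2 fold change of 0.22 with an interval that includes 0, or 0.14 with the GC correction, and *CCDC85C* overlaps 84.8% of its transcript on the opposite strand. *CCNL1* and *CCNL2*, cyclins that act in splicing, had −0.08 and −0.14.

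How far replicate 1 lay from the other replicates was related between the IPs, though not for every member. The log2 difference of replicate 1 from the mean of replicates 2 and 3 ran from −0.89 to 0.41 over the tested members in the IgG IP and from −0.57 to 0.55 in the IGF2BP3 IP. Across the 43 genes the differences in the IgG IP and the IGF2BP3 IP had a Pearson r of 0.76 and a Spearman rho of 0.68, beside 0.60 and 0.59 across all 14507 tested genes. These points are genes of the same 6 libraries and not independent replicates. *CABLES1* was lowest in both groups, at −0.89 and −0.57, and was the only member below −0.5 in both, as were 4.13% of all tested genes. *CDK9* (−0.50 and −0.36) and *CDK12* (−0.45 and −0.36) followed, and *CCNL1* (0.41 and 0.30) was on the other side. *CABLES2*, at −0.20 and −0.29, and *CDK16*, at −0.09 and 0.10, differed less between replicates than between the IPs. The sign was not the same in both groups for some members, among them *CDK16*, *CCNF* (−0.19 and 0.10) and *CDKN3* (0.28 and −0.06).

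**Figure D4:**
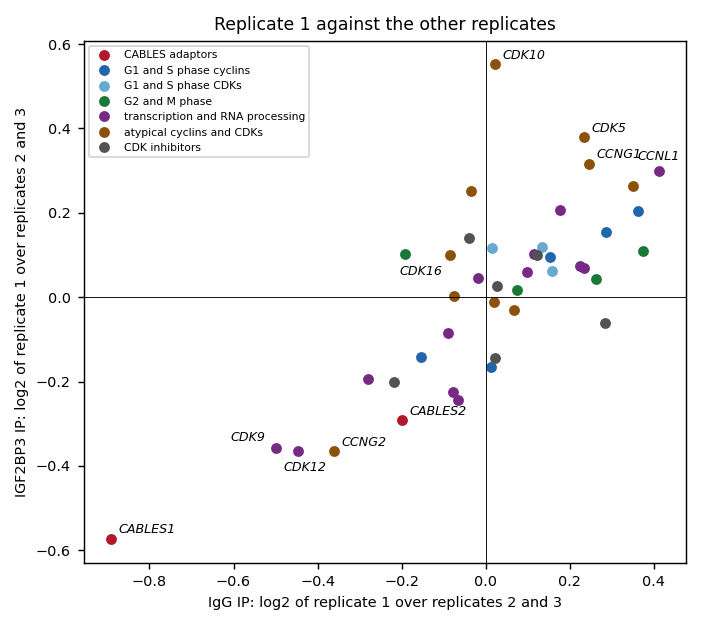
Log2 difference of replicate 1 from the mean of replicates 2 and 3 in the IgG IP (horizontal) and the IGF2BP3 IP (vertical), with 1 point for each of the 43 tested genes, coloured by role. Most points lie along the diagonal, with CABLES1 at −0.89 and −0.57 farthest out and CDK10 at 0.02 and 0.55 off it.

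The change between the IPs moved with GC content, in these genes as in all genes. Across the 43 members the log2 fold change and the GC content of the canonical transcript had a Pearson r of 0.48 and a Spearman rho of 0.46. Without *CABLES2* and *CDK16* these were 0.45 and 0.40 over 41 genes, and across all 14479 tested genes with a transcript 0.36 and 0.41. All points share the same 6 libraries. Of the 12 members with at least 55% GC, 9 lay above 0 with a median of 0.10, where all tested genes in that range had 0.16. Of the 31 members with less, 8 lay above 0 with a median of −0.09, where all genes had −0.05. Both called members were among the 12.

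*CABLES2* had a GC content of 56.3%, in a bin of tested genes from 54.3% to 57.8% in which 2.42% of all tested genes were called higher, and *CDK16* one of 59.7%, in the bin from 57.8% to 61.5% in which 2.62% were. After the per-library GC correction both remained past the thresholds, with 0.559% of all genes called higher. CA density had a Pearson r of 0.37 and a Spearman rho of 0.26 across the 43 members, and 0.10 and 0.15 without *CABLES2* and *CDK16*. Across all 14479 tested genes with a transcript it gave 0.26 and 0.31. The part of GC content or of CA in the result was not tested.

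**Figure D5:**
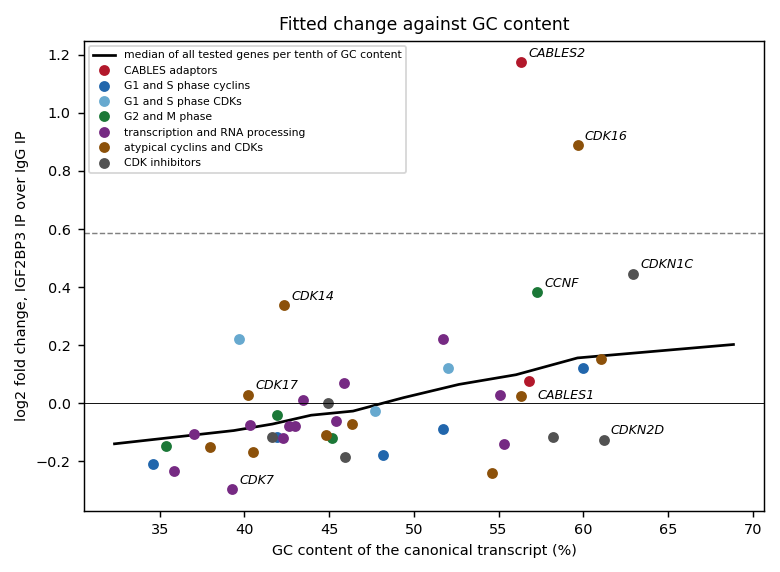
Fitted log2 fold change of the 43 tested genes against the GC content of their canonical transcript in percent, coloured by role, with a line for the median of all tested genes in each of 10 bins of GC content and a dashed line at 1.5-fold. The bins hold nearly equal numbers of genes and differ in width. The line climbs from −0.14 to 0.20, and CABLES2 and CDK16 lie far above it, while CDK14, CDKN1C and CCNF lie above it by less.

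Genes that act with these families were examined as lists. Of 32 partners and regulators of CDKs, all were tested, 1 was higher and 0 lower, beside 1.16% and 0 of all tested genes, with a median log2 fold change of 0.01, beside −0.01. The 1 was *TP73*, a p53-family transcription factor whose protein is a known partner of CABLES1, at 30.8 ± 3.87 and 49.8 ± 3.11 normalized CPM (SD, n = 3 each) and a log2 fold change of 0.69. With the replicate number as a block *MED12*, the subunit that activates the Mediator kinase with cyclin C, was called too, at 0.65 from 36 to 117 counts per library, in a fit that called 3.56% of all genes higher. On TPM *MED12* gave 1.34, 2.80 and 4.28 in the IgG IP, against 4.98, 1.94 and 1.94 in the IGF2BP3 IP, with overlap. On normalized CPM the groups did not overlap in 6 of the 32 toward higher and in 2 toward lower values, beside 12.0% and 8.69% of all tested genes. Of 17 further cyclin and CDK family genes 9 were tested, 0 were past the thresholds in edgeR with or without the block, and 3 lay lower without overlap, a pattern of 8.69% of all tested genes. The 14 processed pseudogenes named for members held at most 5 counts, so little of the members' signal was assigned to them.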

How the data were processed

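The 6 RIP-seq libraries of WaGa cells, 3 for each antibody, were grouped by their labels. The 46 genes, their roles and the gene lists were chosen with earlier results of these data known. The authors aligned paired-end reads to GRCh38 with STAR 2.7.9a, quantified with RSEM and GENCODE version 37, and deposited read counts per gene without normalization. The TPM values deposited by the authors are RSEM estimates per length. The program that made the counts and its strand setting are not given in the sources used here, so genes that overlap others are uncertain. The FPKM values were not used.

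Counts were filtered with filterByExpr, scaled with TMM and tested with edgeR 4.0.16 under R 4.3.3 (quasi-likelihood test, antibody as the single term), with Benjamini-Hochberg adjustment over 14507 genes. The thresholds of the study's methods were kept (1.5-fold, adjusted p under 0.05), with edgeR in place of DESeq2. Standard errors were derived from the F statistic of each gene, and intervals are 95% and cover the spread between libraries. Library totals of 9758759 to 14886414 counts and a biological coefficient of variation of 13.4% set the precision. TPM were tested with limma 3.58.1 on log2(TPM + 1).

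The alternatives were DESeq2 1.42.0, limma-voom, limma-trend on TPM, other size factors, filters and fold minimums, a loess correction for GC content (span 0.5), a replicate block, and leaving out libraries. The deviations of same-numbered libraries from their group means correlated at 0.568 for replicate 1, 0.277 for replicate 2 and 0.231 for replicate 3. The replicate numbers were used as the block. Replicate 2 of one group against replicate 3 of the other gave 0.277 and 0.269, close to the same-numbered values of replicates 2 and 3. The correlations thus do not show how replicates 2 and 3 pair, and the labels give only numbers. Fits were tested on simulated data.

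GC content, motifs and coordinates came from GENCODE version 44 canonical transcripts, found for 60437 of 60655 genes and for all 46 members. CA and GGAC were counted on the sense strand of the transcript, and a GGAC followed by A shares its last base with a CA. Values in every library are given for both CABLES genes, members past the thresholds or past 1.5-fold, and in each role the member with the highest TPM and the one with the largest change. *CDK17*, *CDKN1B*, *CDK14* and *CCNA1* were added as comparisons after their values were seen. A gene on the list of markers of other cell types is not reported here.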

Additional observations from a re-analysis of the deposited data

How the results depend on the processing

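The number of members called higher was 2 with most alternatives. It was 0 with limma-trend on log2(TPM + 1) and on log2(TPM + 0.1), where 3 members (*CABLES2*, *CDK16* and *CDK2*) were higher at an unadjusted p under 0.05, and 1 (*CABLES2*) with a minimum of 2-fold. Leaving out single libraries gave 0 to 2, with 1 (*CABLES2*) without IgG IP replicate 2 or replicate 3 and 0 without IGF2BP3 IP replicate 2. No alternative called a member lower. With a replicate block in edgeR the counts were again 2 higher and 0 lower. The block changed no call of a member, while *MED12*, which is no member, was called with the block and not without it. The log2 fold change of *CABLES2* was above 0 in all 22 alternatives and past the thresholds in 19, and that of *CDK16* in 22 and 16. Among the 22, those with another fold minimum reused the same edgeR fit, so their signs and adjusted p could not differ. Without a fold minimum both calls were fixed in advance, and with 2-fold the main log2 fold change alone decided them. All alternatives reused the same libraries, so they describe the dependence on processing and are no independent support. *CABLES2* missed the adjusted p threshold at 1.32 and 1.35 with limma-trend on log2(TPM + 1) and log2(TPM + 0.1), and at 1.09 without IGF2BP3 IP replicate 2, within a range of 1.09 to 1.27 over the fits without a library. The median of the members was −0.074, but −0.031 with library totals only (all tested genes 0.034), 0.063 and 0.107 with limma-trend on TPM (0.110 and 0.135), and −0.069 to −0.026 without a library, the highest without IgG IP replicate 1. The cause was not tested. Of the members, 28, none with a call, changed sign under at least 1 alternative. Counts of 14 to 39 limit *CDK6* and *CDK20*.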
